A study of Homo sapiens with 4 samples.

Results

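LhTERTL/cre+, a derivative of the prostate cancer line PC-3 whose telomeres had been elongated and whose hTERT was back at its basal level after Cre, was set against the untreated mock line. The comparison holds 2 of the 4 arrays of the study, 1 array a side, and covers all 54613 probe sets that are not array controls. PC-3 is an epithelial line from a metastasis of a human prostate cancer. By its labels LhTERTL/cre+ had long telomeres and basal hTERT, and mock had short telomeres and basal hTERT. The remaining arrays were LhTERTL, with long telomeres and overexpressed hTERT, and mock/cre+, with short telomeres and basal hTERT. The lines were cultured in dishes to near confluency with no further treatment, and the series was designed to compare telomere-elongated cells, with and without exogenous hTERT, with control lines. LhTERTL/cre+ and mock differ in telomere length, in Cre and in a history of exogenous hTERT. With 1 array for each line, these cannot be told apart, nor from any other difference between the 2 cultures. The sources used here do not state how hTERT and Cre were delivered, nor whether a line was 1 clone.

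Telomeres are the repeat-bearing ends of linear chromosomes, capped by the shelterin proteins and shortened at each round of replication. Telomerase, whose catalytic subunit is encoded by TERT, adds the repeats back. Cre is a recombinase that removes DNA lying between its recognition sites, so a gene flanked by such sites can act for a time and then be taken out. A transgene used in this way can leave a lasting product, such as longer telomeres, after the gene itself has gone.

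The deposited values are log2 signals in which each probe set was centred on its median over the 4 arrays. They therefore give differences between arrays and no level, and neither abundance nor the identity of the cells as prostate epithelium could be checked against marker levels. Every difference below is LhTERTL/cre+ minus mock on the log2 scale, and no difference has a replicate check or a p-value. A gene is the mean of its probe sets, with 19775 genes measured. Of the 62 array controls, 0 differed by 2-fold or more. The 24 probe sets for the poly-A spikes, added during labelling, differed by a median of -0.47, within -0.69 to -0.23, and the 18 for the hybridisation spikes by -0.17. The 3′ minus 5′ contrast, a sign of RNA quality, differed by 0.09 for actin and by -0.02 for GAPDH.

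Few probe sets separated LhTERTL/cre+ from mock. Of the 54613 probe sets, 294 (0.538%) were at least 2-fold apart, 193 (0.353%) higher and 101 (0.185%) lower in LhTERTL/cre+. At least 4-fold apart were 20 probe sets on the higher side and 2 on the lower. The differences had a median of -0.01 and quartiles of -0.15 and 0.13, and 96.5% of probe sets lay within 1.5-fold. Averaged by gene, 62 of 19775 genes (0.314%) stood at least 2-fold higher and 24 (0.121%) at least 2-fold lower. At 1.5-fold the counts were 329 genes (1.66%) higher and 146 (0.738%) lower.

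Among the 6 possible pairs of arrays, this pair had the lowest count. Against the Cre-treated control, LhTERTL/cre+ had 231 probe sets at least 2-fold higher and 640 lower, or 1.59% in all. The 2 control lines, mock/cre+ and mock, were 2-fold apart at 1554 probe sets (2.85%), although neither carried elongated telomeres. LhTERTL/cre+ and LhTERTL, both with long telomeres, were 2-fold apart at 2107 (3.86%), and LhTERTL and mock at 1677 (3.07%). The root mean square difference was 0.265 for LhTERTL/cre+ against mock and lay between 0.335 and 0.456 for the other 5 pairs. These pairs share arrays and are given side by side.

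**Figure D1:**
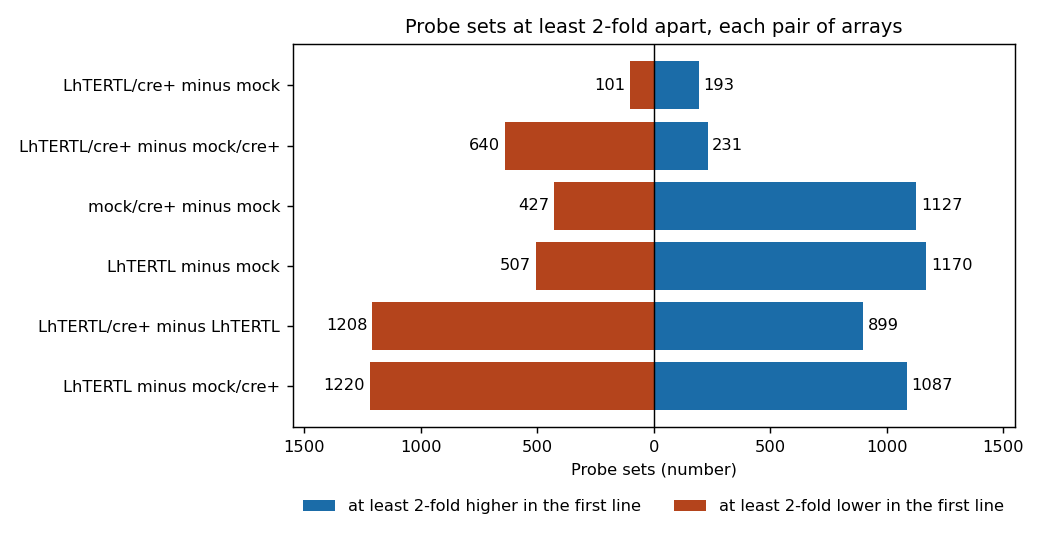
Number of probe sets at least 2-fold higher (right of 0) or lower (left of 0) in the first-named line, for the 6 pairs of arrays. LhTERTL/cre+ minus mock had 193 and 101, the shortest pair of bars.

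The gene that was introduced stood near its mock value. One of 2 TERT probe sets was far higher in the line that overexpressed hTERT. It had centred values of -0.16 in LhTERTL/cre+, 3.54 in LhTERTL, -0.12 in mock/cre+ and 0.12 in mock. Only LhTERTL stood apart, and LhTERTL/cre+ minus mock was -0.28. The other TERT probe set read 0.10 in LhTERTL/cre+, -0.66 in LhTERTL, -0.06 in mock/cre+ and 0.06 in mock, a difference of 0.04. Of 9 measured genes for telomerase and its assembly, 0 were 2-fold apart and 6 lay above 0, with a median of 0.04. WRAP53, which directs telomerase to Cajal bodies, had the largest value at 0.24.

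The telomere-binding genes showed equally little. Of 12 measured genes of shelterin, the CST complex and the tankyrases, 0 were 2-fold or even 1.5-fold apart, 7 lay above 0 and the median was 0.06. TERF1, which binds the double-stranded repeats and limits elongation, stood at -0.22. STN1, a CST subunit, stood at 0.22, but its probe sets read -0.18 and 0.63. Among 7 genes that earlier work tied to telomere length, 3 lay above 0 and the median was -0.12. At 1.5-fold 1 of them was lower (0.738% of all genes) and 0 higher (1.66%). The lower gene was DSP, the desmosomal protein desmoplakin, at -0.90, which is also counted among the epithelial genes below. ISG15 stood at -0.16, C1S at 0.23 and SORBS2 at 0.01. Of 18 genes linked to recombination-based telomere maintenance, 0 were 2-fold apart, with ASF1A, a histone chaperone, at 0.78 and ATRX, a chromatin remodeller, at -0.31.

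The genes that stood higher in LhTERTL/cre+ were led by PRTFDC1, which encodes a relative of the purine salvage enzyme HPRT. PRTFDC1 had 0.68 in LhTERTL/cre+, -0.68 in LhTERTL, 0.88 in mock/cre+ and -3.24 in mock, a difference of 3.92 or 15.1-fold on 1 probe set. Mock alone was low. IL1B, the inflammatory cytokine interleukin-1 beta, had 1.93 in LhTERTL/cre+, -0.52 in LhTERTL, 0.52 in mock/cre+ and -0.80 in mock. Here LhTERTL/cre+ was the highest array, the difference was 2.73, and both probe sets showed it (2.56 and 2.90). HAS2, which makes hyaluronan, had -0.56 in LhTERTL/cre+, 1.44 in LhTERTL, 0.56 in mock/cre+ and -2.89 in mock, a difference of 2.33. Mock was again the one low array.

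Several of the leading higher genes act on lipids. PLA2G4A, the cytosolic phospholipase that frees arachidonic acid, had -0.26 in LhTERTL/cre+, 0.26 in LhTERTL, 0.29 in mock/cre+ and -2.59 in mock, a difference of 2.33. FABP4, a fatty acid carrier, had 0.91 in LhTERTL/cre+, -0.91 in LhTERTL, 1.16 in mock/cre+ and -1.33 in mock, a difference of 2.25. G0S2, an inhibitor of triglyceride lipase, had 0.83 in LhTERTL/cre+, -0.83 in LhTERTL, 1.53 in mock/cre+ and -1.27 in mock, a difference of 2.10. PLA2G4A was low in mock alone, whereas FABP4 and G0S2 were high in both Cre-treated lines and low in both others. ELOVL4, which extends very long fatty acids, stood at 1.74 with mock alone low. PLPP4, a lipid phosphatase, stood at 1.68 and PLA2G7, which inactivates platelet-activating factor, at 1.66, both with LhTERTL/cre+ as the highest array. This grouping was made after the values were seen and has no test.

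TFF3, a secreted trefoil peptide of mucosal epithelium, had 0.72 in LhTERTL/cre+, 0.16 in LhTERTL, -0.16 in mock/cre+ and -1.48 in mock, a difference of 2.20. LXN, an inhibitor of carboxypeptidases, stood at 1.82, EPB41L3, a membrane-skeleton protein, at 1.80 with its 3 probe sets between 1.53 and 2.13, and HTR2B, a serotonin receptor, at 1.64. Both long-telomere lines exceeded both short-telomere lines for TFF3 and HTR2B. ZNF667-AS1, a noncoding RNA, stood at 1.79 with mock alone low. Other genes on the higher side were COL6A3, a collagen VI chain, at 1.37, STAT6, a transcription factor of interleukin-4 signalling, at 1.18, GJA1, a gap junction protein, at 1.13, and DPP4, a surface peptidase, at 1.04.

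On the lower side, S100A9, a subunit of calprotectin, had -1.002 in LhTERTL/cre+, -0.27 in LhTERTL, 0.27 in mock/cre+ and 0.89 in mock, a difference of -1.89. Both long-telomere lines lay below both short-telomere lines. ESRP1, a splicing regulator of epithelial cells, had -1.25 in LhTERTL/cre+, 1.39 in LhTERTL, -0.64 in mock/cre+ and 0.64 in mock, with its 2 probe sets at -1.90 and -1.88. For ESRP1 both Cre-treated lines were low. HSPA6, a stress-induced heat shock protein, had -0.42 in LhTERTL/cre+, -0.04 in LhTERTL, 0.04 in mock/cre+ and 1.12 in mock, a difference of -1.54, and mock alone was high. TNFAIP6, which binds hyaluronan, stood at -1.51 and was likewise high in mock alone.

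IL6, an inflammatory cytokine, had -1.60 in LhTERTL/cre+, 2.27 in LhTERTL, 0.11 in mock/cre+ and -0.11 in mock, a difference of -1.49. LhTERTL and LhTERTL/cre+ stood at opposite ends. PTPRR, a tyrosine phosphatase, had -1.91 in LhTERTL/cre+, 0.72 in LhTERTL, 0.62 in mock/cre+ and -0.62 in mock. PTPRR and HLA-DMA, which loads peptides onto class II molecules, were lowest in LhTERTL/cre+, with differences of -1.29 and -1.26. GSPT2, a translation release factor, stood at -1.27. PLAC8 at -1.25 and NMRAL2P, a pseudogene, at -1.19 were the genes of this side with the highest LhTERTL values, 3.42 and 2.72. PI3 at -1.18 and SLPI at -1.11 encode secreted elastase inhibitors and lie close together on chromosome 20, with 2 measured genes between them.

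**Figure D2:**
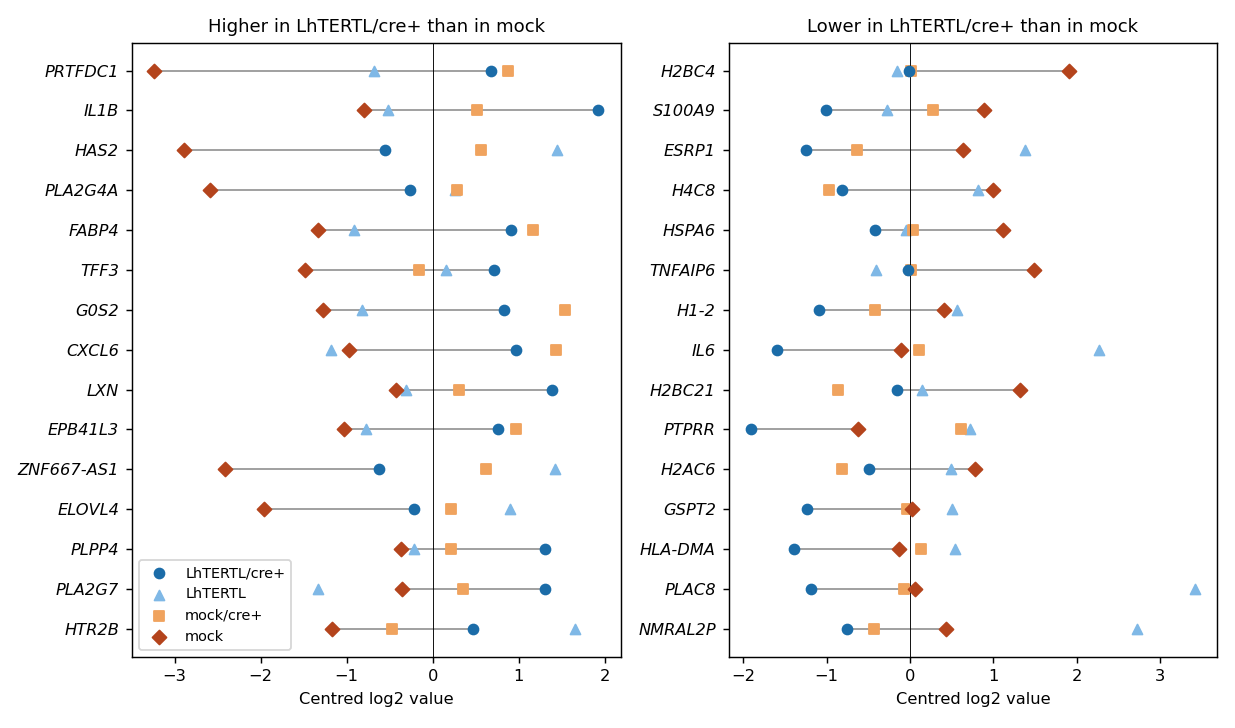
Centred log2 values in the 4 arrays for the 15 genes with the largest positive and the 15 with the largest negative difference, each point 1 array, the grey line joining LhTERTL/cre+ and mock. PRTFDC1, HAS2 and PLA2G4A show mock alone at the low end, and H2BC4 and TNFAIP6 show mock alone at the high end.

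The position of the other 2 lines differed between these genes. Of the 62 higher genes, mock was at least 2-fold from each other array in 16 (0.0809% of all genes) and LhTERTL/cre+ in 6 (0.0303%). Of the 24 lower genes the counts were 5 (0.0253%) for mock and 6 (0.0303%) for LhTERTL/cre+. A gene so placed is 2-fold apart by definition, so these percentages count the same genes and are no background. Both long-telomere lines lay beyond both short-telomere lines in 10 higher genes, or 16.1%, against 11.4% of all genes, and in 5 lower genes, or 20.8%, against 11.7%. Both Cre-treated lines lay beyond both others in 37 higher genes, or 59.7%, against 17.4% of all genes, and in 14 lower genes, or 58.3%, against 20.1%. The genes were chosen on the same 2 arrays, so nothing is read from these shares.

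Probe sets of a gene did not always agree. Of 206 genes with a probe set 2-fold apart, 155 had several probe sets, of which 96 had all on 1 side of 0 and 18 had all 2-fold apart. Of the 86 genes 2-fold apart on average, 51 rested on 1 probe set. For IGFBP5, an insulin-like growth factor binding protein, 6 probe sets ran between 0.15 and 3.14. LINC01133 had probe sets at 0.09 and 2.70, and PITPNM3 at -0.29 and 2.30. The pooled SD of the difference between probe sets of a gene was 0.225. The 2 probe sets at least 4-fold lower, at -3.51 and -2.93, are unnamed here, and mock was the highest array in both.

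Histone genes were the gene group farthest below 0. Replication-dependent histones package newly made DNA, and their mRNAs end in a stem-loop in place of a poly-A tail during S phase. Of 8 measured genes of the histone list, 5 were at least 2-fold lower against 0.121% of all genes, and 8 of 8 lay below 0 against 52.6% of all genes. The list median was -1.22 against -0.01 for all genes. It was -0.47 with the mean of mock and mock/cre+ as the reference and -0.31 with mock/cre+ alone. H4C8 had -0.82 in LhTERTL/cre+, 0.82 in LhTERTL, -0.97 in mock/cre+ and 1.001 in mock, a difference of -1.82. H1-2, a linker histone, had -1.09 in LhTERTL/cre+, 0.56 in LhTERTL, -0.41 in mock/cre+ and 0.41 in mock, a difference of -1.50. Both were low in the Cre-treated lines and high in the lines without Cre. The other 3 list members 2-fold lower were H2BC21 at -1.47, H2AC6 at -1.28 and H2BC5 at -1.17. Beyond the list, H2BC4 had -0.01 in LhTERTL/cre+, -0.16 in LhTERTL, 0.01 in mock/cre+ and 1.91 in mock, a difference of -1.92, with mock alone high, and H2AC8 stood at -1.01.

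Because histone genes are near copies of one another, their probe sets can take up each other's RNA. Of 73 probe sets for replication-dependent histones, a pattern of names chosen after values were seen, 20 carried several gene symbols. Of the 73, 16 were at least 2-fold lower (0.185% of all probe sets) and 0 higher (0.353%), 55 lay below 0 and the median was -0.33. In 15 of the 16, mock was the highest array. The 16 were chosen on the LhTERTL/cre+ and mock values, so nothing is read from this count. The array medians of the 73 were -0.13 in LhTERTL/cre+, 0.07 in LhTERTL, -0.04 in mock/cre+ and 0.14 in mock. Without probe sets whose names mark shared sequence, the list median was -0.60. The poly-A spikes stood lower in the LhTERTL/cre+ array too, and their part in the histone values was not tested.

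The promoters of H2BC4 and H2BC21, the H2B genes with the largest differences, are shown because H2B promoters share an octamer, ATTTGCAT, the motif bound by Oct factors. They are the 250 bases before the gene start from RefSeq (GRCh38.p14), 5′ to 3′ on the strand of the gene, with the octamer in capitals.
H2BC4, chr6:26123927-26124176, minus strand: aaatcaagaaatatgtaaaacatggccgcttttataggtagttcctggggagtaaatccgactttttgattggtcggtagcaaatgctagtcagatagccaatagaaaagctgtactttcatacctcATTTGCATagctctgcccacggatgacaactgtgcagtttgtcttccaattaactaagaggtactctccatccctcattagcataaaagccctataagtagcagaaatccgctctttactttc
H2BC21, chr1:149886683-149886932, minus strand: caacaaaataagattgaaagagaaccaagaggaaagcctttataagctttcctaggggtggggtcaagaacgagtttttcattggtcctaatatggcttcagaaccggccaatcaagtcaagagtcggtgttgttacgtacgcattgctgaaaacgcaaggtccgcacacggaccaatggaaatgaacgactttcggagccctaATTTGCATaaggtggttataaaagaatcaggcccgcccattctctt
Searched on both strands, the octamer was present in 13 of 16 H2B promoters (81.2%) and in 1.66% of 27305 promoters of the same length. Among the H2B genes that stood 2-fold lower, H2BC5 had no match in this window. A match describes the letters only.

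Genes of DNA replication stood slightly higher in LhTERTL/cre+ as a group. The G1/S list holds the replicative helicase, polymerases, origin factors and other genes that cells express on entering S phase, many of them driven by E2F factors. Of 39 measured members, 36 lay above 0 against 47.2% of all genes, with a median of 0.52 against -0.01. At 2-fold 1 was higher (0.314% of all genes) and 0 lower, and at 1.5-fold 14 were higher (1.66% of all genes) and 0 lower. The list's array medians were 0.27 in LhTERTL/cre+, -0.96 in LhTERTL, 0.72 in mock/cre+ and -0.22 in mock. LhTERTL/cre+ therefore stood above mock and below mock/cre+, and the list median was 0.0051 with the mean of mock and mock/cre+ as the reference and -0.51 with mock/cre+ alone.

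MCM10, which helps to open replication forks, had 0.57 in LhTERTL/cre+, -1.22 in LhTERTL, 1.62 in mock/cre+ and -0.57 in mock, a difference of 1.14 with 3 probe sets between 1.03 and 1.26. POLE2, a subunit of DNA polymerase epsilon, had 0.47 in LhTERTL/cre+, -2.19 in LhTERTL, 0.92 in mock/cre+ and -0.47 in mock, a difference of 0.93. UHRF1, which guides maintenance of DNA methylation, had 0.37 in LhTERTL/cre+, -1.53 in LhTERTL, 1.46 in mock/cre+ and -0.37 in mock, a difference of 0.73. All 3 genes had the same order of arrays, mock/cre+ highest and LhTERTL lowest. CCNE2, a cyclin of S-phase entry, stood at 0.91, PCNA, the polymerase clamp, at 0.90, and MCM5, a helicase subunit, at 0.85. The 3 members below 0 were CCNE1 and CCND1, both at -0.19, and E2F2 at -0.09.

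The promoters of POLE2 and UHRF1 are shown because they carry the E2F motif TTTNNCGC, in capitals on either strand, in the 250 bases before the gene start (RefSeq, GRCh38.p14).
POLE2, chr14:49688215-49688464, minus strand: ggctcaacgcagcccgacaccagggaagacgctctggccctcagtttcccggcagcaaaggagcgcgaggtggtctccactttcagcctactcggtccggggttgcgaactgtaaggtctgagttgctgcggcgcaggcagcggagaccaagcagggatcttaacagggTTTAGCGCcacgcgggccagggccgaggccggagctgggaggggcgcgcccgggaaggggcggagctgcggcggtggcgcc
UHRF1, chr19:4909251-4909500, plus strand: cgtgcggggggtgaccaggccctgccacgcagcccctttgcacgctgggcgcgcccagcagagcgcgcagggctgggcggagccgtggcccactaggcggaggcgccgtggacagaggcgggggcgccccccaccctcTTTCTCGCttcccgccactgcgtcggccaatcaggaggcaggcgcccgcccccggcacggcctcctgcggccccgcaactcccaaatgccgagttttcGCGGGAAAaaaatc
POLE2 had 1 match and UHRF1 had 2. The motif was present in 13 of 34 G1/S promoters (38.2%) and in 5.93% of 27305 promoters of this length, and MCM10 had none in this window.

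Other cell-cycle groups lay closer to 0. Of 32 measured G2/M genes, 28 were above 0 against 47.2% of all genes, with a median of 0.15, and 0 were 2-fold apart. TTK, a spindle checkpoint kinase, stood at 0.91 and CDK1, the mitotic kinase, at 0.55. Of 21 repair genes, 17 were above 0 against 47.2% of all genes, median 0.10, with CHEK1, the replication checkpoint kinase, at 0.55. Of 7 CDK inhibitors, 5 lay below 0 against 52.6% of all genes, median -0.22. CDKN1A, the inhibitor p21, had -0.34 in LhTERTL/cre+, 2.09 in LhTERTL, -0.57 in mock/cre+ and 0.34 in mock, a difference of -0.68. LhTERTL was the one array far from the others. With mock/cre+ as the reference, the G2/M median was -0.34 and that of the CDK inhibitors 0.23.

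**Figure D3:**
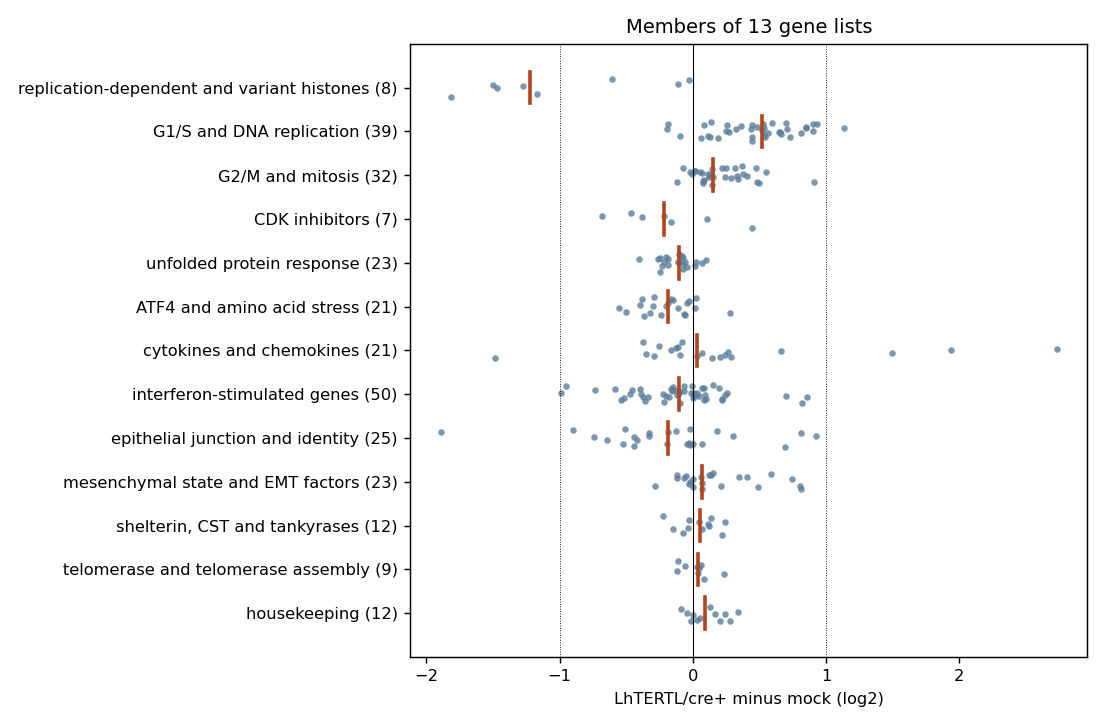
LhTERTL/cre+ minus mock for the measured members of 13 gene lists, each point 1 gene, the red bar the list median, dotted lines 2-fold and the number of genes in brackets. The histone list sits lowest, with a median of -1.22, and the G1/S list highest, with a median of 0.52.

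Inflammatory genes were split. Of 21 measured cytokines and chemokines, 3 were at least 2-fold higher (0.314% of all genes) and 1 lower (0.121% of all genes), 11 lay above 0, and the median was 0.03. Besides IL1B, the higher genes were the neutrophil chemokines CXCL6 and CXCL1, which lie on chromosome 4 with 1 measured gene between them. CXCL6 had 0.97 in LhTERTL/cre+, -1.18 in LhTERTL, 1.44 in mock/cre+ and -0.97 in mock, a difference of 1.94. CXCL1 had 1.13 in LhTERTL/cre+, -1.42 in LhTERTL, 0.37 in mock/cre+ and -0.37 in mock, a difference of 1.498. Both Cre-treated lines were above both others. CXCL8, another such chemokine, stood at 0.66, LIF at -0.37, and IL6, as given above, was the 1 lower gene.

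Of 15 S100 genes and LCN2, 2 were at least 2-fold lower (0.121% of all genes), S100A9 and S100P at -1.06, and the median was -0.02. LCN2, an iron-trapping lipocalin, had -0.50 in LhTERTL/cre+, 4.51 in LhTERTL, -0.21 in mock/cre+ and 0.21 in mock, a difference of -0.71, with LhTERTL alone high. S100A8, the partner of S100A9, stood at 0.32. Of 50 interferon-stimulated genes, 0 were 2-fold apart, 31 lay below 0 against 52.6% of all genes, and the median was -0.10. At 1.5-fold 3 stood higher (1.66% of all genes) and 3 lower (0.738%). The antiviral genes OASL and DDX60 stood at -0.99 and -0.95 and IRF9, a subunit of the interferon-activated factor, at -0.73, whereas CMPK2 stood at 0.86, IFI44L at 0.82 and USP18 at 0.70. Of 19 HLA and antigen-processing genes, 1 was 2-fold lower (0.121% of all genes), HLA-DMA, and the median was -0.03.

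Of 23 genes of the unfolded protein response, which serves protein folding in the endoplasmic reticulum, 0 were 1.5-fold apart. Below 0 lay 19, against 52.6% of all genes, and the median was -0.10. The array medians were -0.04 in LhTERTL/cre+, 0.40 in LhTERTL, -1.15 in mock/cre+ and 0.09 in mock. Mock/cre+ lay farthest from the rest, and HSPA5, the main chaperone of that compartment, stood at -0.04 for LhTERTL/cre+ minus mock. Of 21 ATF4 and amino-acid stress genes, 18 lay below 0 against 52.6% of all genes, with a median of -0.19, 0 being 1.5-fold apart. With the mean of mock and mock/cre+ as the reference these medians were 0.51 and 0.20, and with mock/cre+ alone 1.10 and 0.68. Of 22 antioxidant genes 11 were above and 11 below 0. AKR1B10, an aldo-keto reductase, had -1.66 in LhTERTL/cre+, 2.95 in LhTERTL, 0.74 in mock/cre+ and -0.74 in mock, a difference of -0.92. Of 9 heat shock genes 6 lay above 0 against 47.2% of all genes, with a median of 0.13 and DNAJB1 at -0.65. That median was -0.22 with the mean of mock and mock/cre+ as the reference and -0.75 with mock/cre+ alone. HSPA6, the heat shock gene given above at -1.54, was not among these 9 and lay farther below 0 than any of them.

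Metabolic groups differed by small amounts. Cholesterol and fatty acid synthesis genes lay below 0 in 17 of 21 against 52.6% of all genes, median -0.15. Hypoxia and glycolysis genes lay above 0 in 20 of 28 against 47.2% of all genes, median 0.16. BNIP3, a mitophagy receptor, stood at 0.43 and ADM, adrenomedullin, at -0.55. Autophagy genes lay below 0 in 14 of 20 against 52.6% of all genes, median -0.11. ULK1, the initiating kinase, stood at -0.67 and ATG5 at 0.66. None of the genes of these groups were 2-fold apart.

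Epithelial genes stood somewhat lower. Of 25 measured, 18 lay below 0 against 52.6% of all genes, the median was -0.18, and ESRP1 alone was 2-fold lower (0.121% of all genes). After ESRP1 came DSP at -0.90, CDH1, E-cadherin, at -0.74 with probe sets at -1.21 and -0.27, and EPCAM, an epithelial adhesion protein, at -0.64. On the other side stood CD24 at 0.93, CLDN7, a claudin, at 0.81 and GRHL2, an epithelial transcription factor, at 0.69. Of 12 keratins, 10 lay below 0 against 52.6% of all genes, median -0.15. Of 23 mesenchymal genes, 16 lay above 0 against 47.2% of all genes, median 0.07, with 4 at least 1.5-fold higher (1.66% of all genes). These were NT5E, which makes adenosine, at 0.81, TGFBI, a matrix protein, at 0.80, CDH11, a mesenchymal cadherin, at 0.74, and CCN2, a matricellular growth factor, at 0.59. ZEB1, a repressor of epithelial genes, stood at 0.49. Of 39 matrix and integrin genes, 23 lay above 0, median 0.04, and the basement membrane collagens COL4A1 and COL4A2 stood at 0.91 and 0.87.

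Markers of other cells differed little. Of 11 leukocyte markers 0 were 2-fold apart, median -0.06, and of 10 endothelial markers 0, median -0.04. Of 11 fibroblast markers 1 was 2-fold higher (0.314% of all genes), COL6A3, median 0.01. Luminal, basal and neuroendocrine lists had medians of -0.01, -0.02 and -0.06 with 0 genes 2-fold apart. In bulk RNA fewer cells of a type and less RNA per cell cannot be told apart. For signalling, ID2 stood at 0.87, LTBP1 at 0.84 and ID1 at -0.50 among 21 BMP and TGF-beta genes of median -0.02, and PLAT, tissue plasminogen activator, stood at -0.87. The remaining lists (p53 targets, WNT, MYC and ribosome biogenesis, complement, stem cell related, immediate early, cancer-testis and housekeeping genes) had medians between -0.17 and 0.09 and 0 genes 2-fold apart.

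Genes at the ends of the measured gene order of each chromosome had a median near that of all placed genes, and fewer of them were 1.5-fold apart. The 20 outermost measured genes at each of 46 ends, 920 in all, had a median of -0.01, and 47.5% lay above 0 against 47.2% of all placed genes. At 2-fold 1 was higher (0.314% of all genes), CRIP2 at 1.24, and 0 were lower (0.121%). At 1.5-fold 11 of the 920 (1.20%) were apart, against 2.47% of the other genes. CRIP1, next to CRIP2 and like it a LIM-domain protein gene, had 1.42 in LhTERTL/cre+, -2.85 in LhTERTL, -0.47 in mock/cre+ and 0.47 in mock, a difference of 0.94. Distance was counted in measured genes, so an end gene need not lie close to a telomere.

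A long stretch of chromosome 6 stood higher in LhTERTL/cre+, a pattern noticed in the data and given without a test. In running medians of 41 neighbouring genes along every chromosome, those of at least 0.2 in size fell in 3 stretches, all on the higher side. The longest ran over 194 of the 1089 measured genes of chromosome 6, with LMBRD1 as its first gene and GPRC6A as its last. Not every running median within it reached 0.2, that centred on gene 698 of the chromosome order being 0.11. The 194 genes had a median of 0.23 against -0.01 for the rest of the chromosome, and 144 of them (74.2%) lay above 0. The same genes had a median of 0.02 for LhTERTL/cre+ minus mock/cre+ and of 0.02 for LhTERTL/cre+ minus LhTERTL. These medians show little net shift from either line, although single genes of the stretch differed more. Mock was the lowest array in 109 of the 194 (56.2%), against 20.1% of all placed genes. The stretch was chosen on the same LhTERTL/cre+ and mock values, so nothing is read from its median or these shares. ELOVL4, NT5E, CD24 and TTK lie in this stretch.

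**Figure D4:**
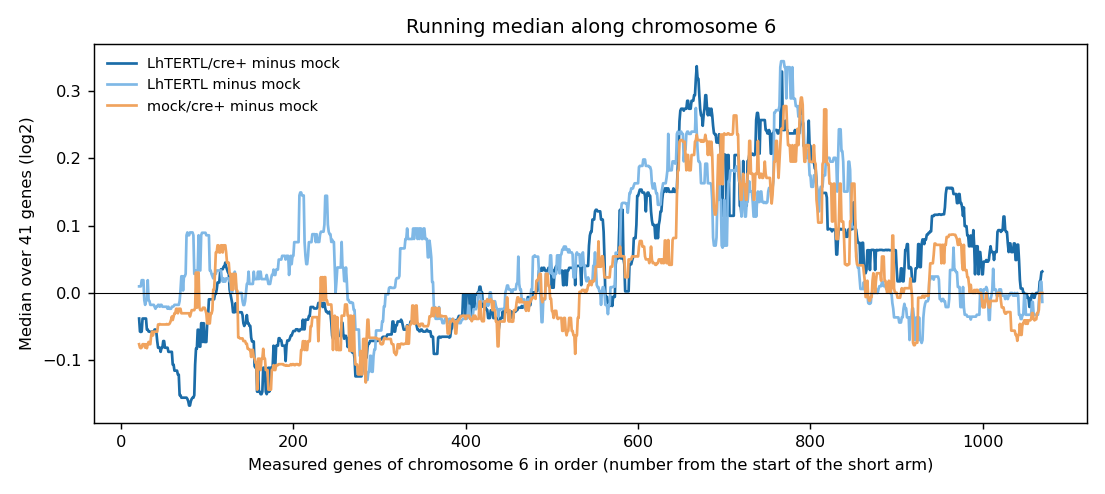
Running median over 41 measured genes along chromosome 6, in gene order, for LhTERTL/cre+, LhTERTL and mock/cre+, each minus mock (log2). The 3 curves share the mock array and lie above 0 together over the stretch of 194 genes, where the medians are 0.23, 0.18 and 0.19.

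The authors deposited a list of higher and a list of lower probe sets, both drawn from the same 4 arrays. On the higher list LhTERTL/cre+ minus mock had a median of -0.05 and quartiles of -0.26 and 0.19, with 54 above and 70 below 0 and 4 at least 2-fold higher. Those 4 were probe sets of TFF3, LOC646903, LINC01133 and PTGFR, a prostaglandin receptor. On the lower list the median was 0.09 and the quartiles -0.25 and 0.43, with 73 above and 56 below 0, 3 at least 2-fold higher and 5 lower. S100A9, HSPA6 and H2AC8 were among the 5. LhTERTL/cre+ and mock both lay between LhTERTL and mock/cre+ in 113 probe sets of the higher list (91.1%) and in 116 of the lower (89.9%). No share over all probe sets is given beside the counts between LhTERTL and mock/cre+. Both lists were drawn from these arrays, so nothing is read from any of their counts or shares.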

How the data were processed

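Each of 4 PC-3 lines gave RNA for 1 Affymetrix U133 Plus 2.0 array, and lines were grouped by their labels. The log2 values deposited by the authors came from RMA, per the submitters' processing notes; the sources used here give no version. The median of each of the 54613 probe sets over the 4 arrays was 0 within 1e-05, so the values were centred and hold no level. The number of arrays limits the precision. A filter on level or a choice of the probe set of highest mean could not be run.

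Differences of LhTERTL/cre+ minus mock were taken for each probe set, leaving out 62 controls, and averaged over the probe sets of a gene. The platform annotation gave 1 symbol to 41091 probe sets, several to 1801 and none used here to 11721. Names were updated by Entrez number through a RefSeq table (GRCh38.p14), which matched 41037. That table also gave the gene order. Apart means at least 2-fold, or 1 on the log2 scale. With 1 array a side no test was run. The named genes are TERT, the 15 largest differences each way and members of 40 lists; others named were chosen after their values were seen. The comparison, its genes and the lists were chosen with earlier results of these data known. In the authors' lower list the LhTERTL and mock/cre+ columns hold each other's values in every probe set, so the list served for names alone. The steps were tested on simulated data, with Python 3.11.15, numpy 2.4.6, pandas 2.3.3 and matplotlib 3.10.9. Alternatives were the probe set summary, the shared-sequence probe sets, the centring, the reference array and the fold limit.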

Additional observations from a re-analysis of the deposited data

How the results depend on the processing

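With 1 array a side, no direction below has a replicate check. The gene counts stayed within 1.5 times when the median difference was set to 0 or the median over probe sets was taken, and the 31 named genes kept their direction. With the median over probe sets, 2 list medians changed sign close to 0, BMP and TGF-beta genes at 0.019 against -0.019 and antioxidant genes at -0.015 against 0.012. At 1.5-fold the probe sets numbered 1129 higher and 762 lower, and at 4-fold 20 and 2. Without probe sets ending in _x_at or _s_at, 48 probe sets were lower and the histone median was -0.60. With the probe set of highest SD for each gene, 142 genes were higher and 58 lower. With the mean of mock and mock/cre+ as the reference, 53 probe sets and 21 genes were higher and 165 and 49 lower. That reference gave medians of 0.0051 for G1/S, 0.51 for the unfolded protein response, 0.20 for ATF4, -0.22 for heat shock and -0.47 for histones. With mock/cre+ alone, chosen after seeing the data, 640 probe sets and 233 genes were lower. The medians then were -0.51 for G1/S, -0.34 for G2/M, 0.23 for CDK inhibitors, -0.23 for recombination-based telomere maintenance, 1.10 for the unfolded protein response and 0.68 for ATF4. They were 0.080 for keratins, 0.057 for immediate early genes, -0.75 for heat shock and -0.31 for histones. The cause was not tested. Of the 31 named genes, 26 differed by more than the probe set spread with the mean reference and 3 with the highest-SD probe set. No paired analysis was possible because each line had 1 array.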

Other observations

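Beside the stretch of chromosome 6, running medians of 41 genes gave shorter higher stretches on chromosome 10, with 51 genes between KIN and SLC39A12 and a median of 0.19, and on chromosome 14, with 42 genes between LINC01588 and FBXO34 and a median of 0.20. The window lengths and the limit were chosen after seeing the data. With windows of 61 genes there were 2 stretches, both higher, 231 genes of chromosome 6 between BMP5 and PKIB at 0.22 and 61 genes of chromosome 10 between NET1 and RSU1 at 0.21. With windows of 21 genes there were 9 higher and 4 lower stretches. Neighbouring genes that were 2-fold higher together, with 1 measured gene between them, included ACTRT3 at 1.04 with LRRC34 at 1.18 on chromosome 3, and MAN1A1 at 1.03 with GJA1 at 1.13 on chromosome 6.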
